A study of Mus musculus with 16 samples.

Results

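Chemokines are small secreted proteins that steer leukocytes along a gradient, and 10 of their genes were followed here in heart ventricles of mice with pressure overload: Ccl2, Ccl6, Ccl7, Ccl8, Ccl9, Ccl11, Cxcl1, Cxcl12, Cxcl14 and Cx3cl1. They were chosen by symbol, as a set of chemokine genes detected in this tissue, and are 10 of the 22372 genes in the deposited table. RNA came from pieces of ventricle of male C57BL/6J mice that were 10 to 12 weeks old when the experiment began. TAC (transverse aortic constriction) narrows the aortic arch with a suture so that the left ventricle pumps against a raised load, and sham mice had the same surgery without the constriction. THZ1, a covalent small-molecule inhibitor of the transcription kinases Cdk7, Cdk12 and Cdk13, or its vehicle was injected into the peritoneum from postoperative day 1 to day 60. The labels give a THZ1 dose of 10 mg/kg with 2 injections a day. Surgery and drug were crossed, which gave the groups Sham-Veh and TAC-Veh (vehicle) and Sham-THZ1 and TAC-THZ1 (drug), with 4 libraries each and 16 in all, and the labels name no transgene or deletion. THZ1 was given to the whole animal, so cells outside the heart were exposed as well.

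Most chemokines signal through membrane-spanning receptors that couple to G proteins. Inflammatory members such as Ccl2, Ccl7 and Cxcl1 are induced by cytokines and microbial products, largely through the factor NF-κB, and call in monocytes or neutrophils. Homeostatic members such as Cxcl12 are made steadily by stromal and endothelial cells and hold their target cells in place. In a pressure-loaded heart, chemokines are best known for bringing Ccr2-positive monocytes into the tissue, where they become macrophages.

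The sequence in front of a chemokine gene is shown because NF-κB sites are the classic switch of inflammatory members. RefSeq promoter windows (build GRCm38.p6, 250 bases before to 50 after the start) were at hand for 7 of the 10 genes, and those of Ccl2, Ccl7 and Ccl11 are not shown. The 150 bases before the start, on the strand of the gene, follow for the gene with most matches, Cxcl1, for Ccl9 and, for contrast, for Cxcl12 and Cx3cl1. Capitals mark matches to the κB motif, taken as GGG, 3 bases of any kind and TTCC, or to its reverse complement.
Cxcl1 (chr5:90891095-90891244, plus strand): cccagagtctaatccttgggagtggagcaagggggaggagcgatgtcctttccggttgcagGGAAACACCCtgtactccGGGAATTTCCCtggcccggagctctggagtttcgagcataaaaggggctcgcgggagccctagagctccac
Ccl9 (chr11:83578637-83578786, minus strand): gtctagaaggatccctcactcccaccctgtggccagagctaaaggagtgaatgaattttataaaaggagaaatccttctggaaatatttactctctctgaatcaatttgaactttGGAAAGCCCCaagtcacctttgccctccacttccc
Cxcl12 (chr6:117168385-117168534, plus strand): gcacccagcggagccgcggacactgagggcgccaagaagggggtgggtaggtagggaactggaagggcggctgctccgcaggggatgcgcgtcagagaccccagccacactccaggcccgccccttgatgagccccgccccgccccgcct
Cx3cl1 (chr8:94772030-94772179, plus strand): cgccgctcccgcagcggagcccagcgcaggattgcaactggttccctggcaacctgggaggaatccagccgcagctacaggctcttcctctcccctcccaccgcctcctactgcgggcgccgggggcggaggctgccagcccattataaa
Cxcl1 held 3 matches between -89 and -61, of which GGGAATTTCC at -71 and GGAATTTCCC at -70 overlap, and GGAAACACCC began at -89. Ccl9 held 1 match, GGAAAGCCCC at -35. No match fell in the windows of Ccl6, Ccl8, Cxcl12, Cxcl14 or Cx3cl1, and 5.56% of the 32851 mouse promoter windows in the table held at least 1. A match describes letters, not binding.

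Of the genes, 6 lie on chromosome 11 in the CC chemokine clusters (build NCBIM37, GENCODE M1). Ccl2 (81849073 to 81850955), Ccl7 (81859214 to 81861027), Ccl11 (81871325 to 81876457) and Ccl8 (81928687 to 81930301) follow each other on the plus strand within 81.2 kb. Ccl9 (83386421 to 83392138) and Ccl6 (83401384 to 83406589) stand together on the minus strand, 1456 kb further on. Cxcl1 is on chromosome 5 (91320267 to 91322141), Cxcl12 on chromosome 6 (117118553 to 117131385), Cxcl14 on chromosome 13 (56390008 to 56397912) and Cx3cl1 on chromosome 8 (97295909 to 97306323). All 10 are protein coding, and counts cover their exons. Ccl2 overlaps Gm17268, and Ccl6 overlaps a long noncoding RNA, both on the other strand, and counting was by strand.

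The libraries held 21.4 to 35.8 M reads assigned to genes, so 1 read was worth 0.715 to 1.34 normalized counts. Cardiomyocyte markers were abundant in all 16 libraries and mitochondrial genes took 33.2% to 44.7% of reads. All 10 chemokines passed the filter of 10 normalized counts in 4 libraries, and 8 of them reached 10 in all 16 libraries. Ccl7 and Ccl11 were below 10 in 1 TAC-Veh library each. Values below are normalized counts in the order of replicates 1 to 4, and fold changes are limma estimates on log2(normalized count + 1). In bulk tissue, fewer cells of a type and less RNA per cell cannot be told apart.

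Per kilobase of exon, Cxcl12 was the most abundant of the 10 in each of the 4 groups, at 574 ± 35.3 in Sham-Veh (SD, n = 4). In Sham-Veh the order then ran Cxcl14 (242), Ccl6 (230), Ccl11 (124), Ccl9 (80.1), Cx3cl1 (69.2), Ccl7 (56.4), Ccl2 (43.5), Cxcl1 (32.5) and Ccl8 (28.8). Cxcl14 and Ccl6 overlapped in this order, as did each neighbouring pair from Ccl9 down to Ccl8. Ccl11 stood clear of both its neighbours. In TAC-Veh it was the lowest of the 10, at 14.2 ± 5.42 per kilobase, and Cx3cl1 had rank 4 at 162 ± 54.5. In TAC-THZ1 Ccl8 had rank 3 at 292 ± 336, a spread wider than its mean.

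**Figure D1:**
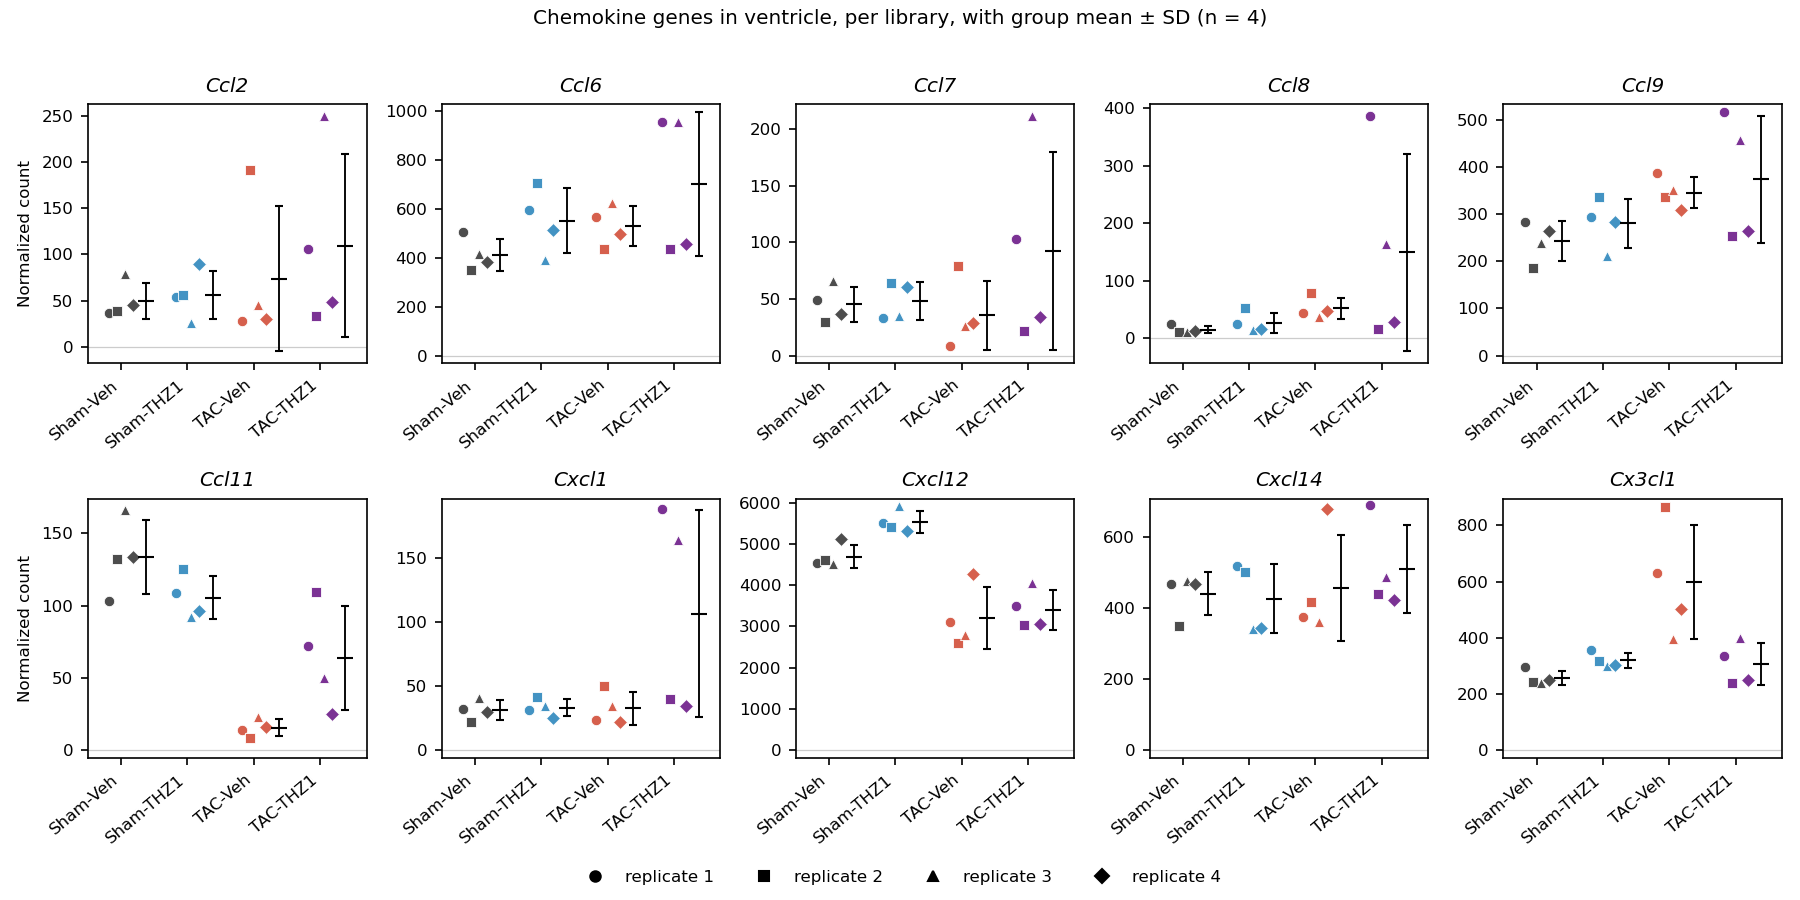
Normalized counts (vertical axis, from 0) of the 10 chemokine genes in each of the 16 libraries, with 1 panel a gene, marker shape for the replicate number and the bar for the group mean ± SD (n = 4). Ccl11 drops to between 8.58 and 22.8 in TAC-Veh, Cx3cl1 peaks there, and in TAC-THZ1 replicates 1 and 3 lie far above replicates 2 and 4 for Ccl2, Ccl7, Ccl8 and Cxcl1.

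Pressure overload under vehicle moved 3 of the 10 genes. Cx3cl1 rose, and Ccl11 and Cxcl12 fell (adjusted p under 0.05). Of all 13331 genes tested, 45.0% were called in this comparison, 21.4% higher and 23.6% lower, so 3 of 10 is not above the background. The median log2 fold change was 0.09 over the 10 genes and -0.0030 over all genes tested. The values of 5 of the 10 did not overlap between TAC-Veh and Sham-Veh, 3 higher and 2 lower, against 37.3% of all genes (18.2% higher, 19.1% lower). THZ1 in constricted hearts moved 3 of the 10 as well, Ccl11 and Cxcl1 higher and Cx3cl1 lower, against a background of 29.4% (15.1% higher, 14.2% lower). Only Ccl11 had values without overlap in that comparison, on the higher side, against 20.0% of all genes (9.53% higher, 10.5% lower). Both comparisons use the same TAC-Veh libraries, so a value that is off there moves both in opposite directions.

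**Figure D2:**
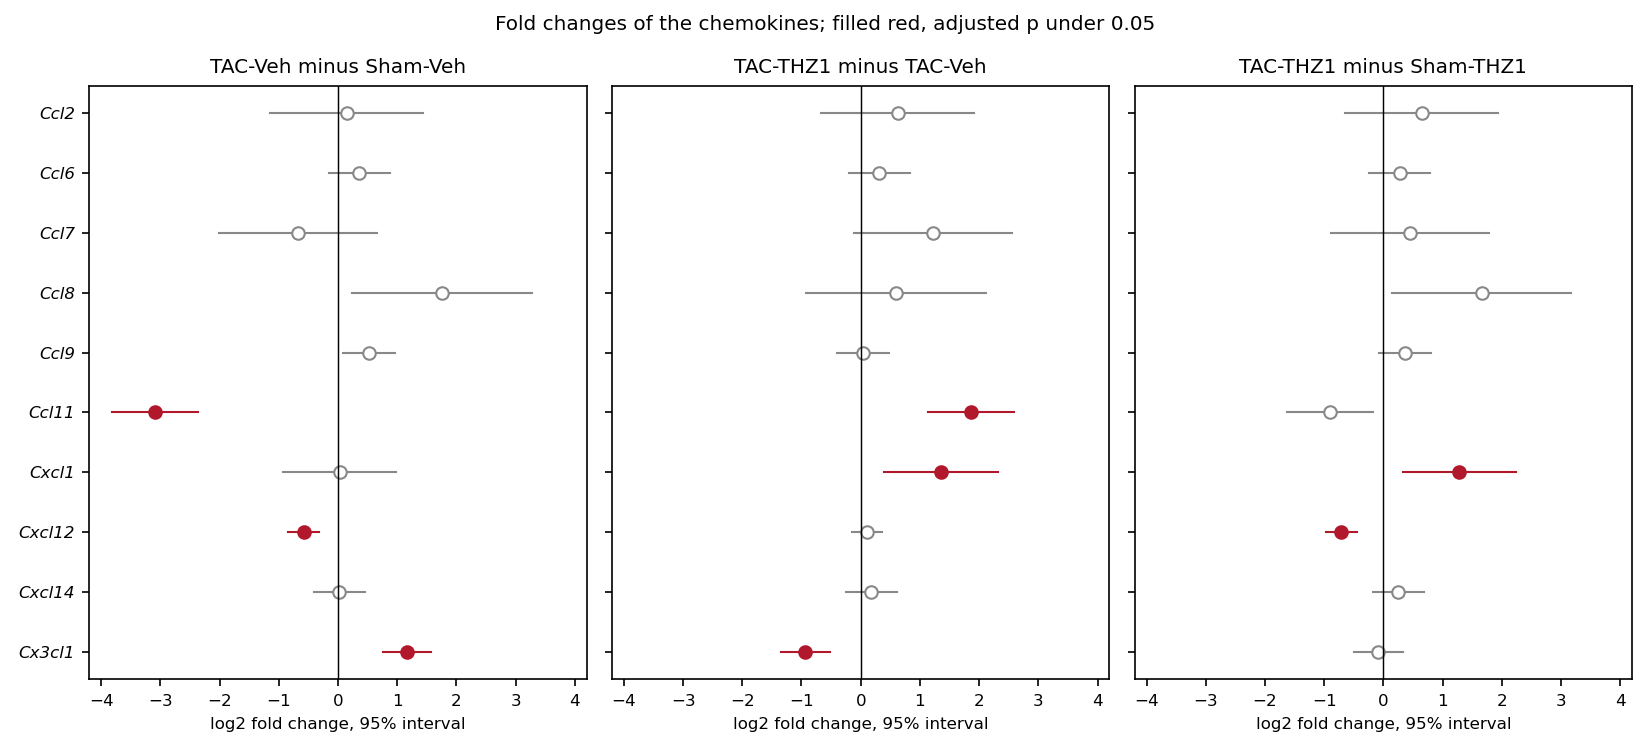
Log2 fold changes (horizontal axis) with 95% intervals for the 10 chemokines in 3 comparisons, filled red where the adjusted p was under 0.05. Ccl11 and Cx3cl1 lie on opposite sides of 0 with TAC and change sides with THZ1 in constricted hearts, and the intervals of Ccl2, Ccl7 and Ccl8 span more than 2 log2 units.

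Ccl11, or eotaxin, is the main ligand of Ccr3 and attracts eosinophils. Its normalized counts were 103, 132, 166 and 133 in Sham-Veh, 109, 125, 92.2 and 96.2 in Sham-THZ1, 14.1, 8.58, 22.8 and 16.2 in TAC-Veh and 72.1, 109, 49.6 and 24.7 in TAC-THZ1. Every TAC-Veh library lay below every library of the other 3 groups. The log2 fold change with pressure overload was -3.09 (SE 0.34, 95% interval -3.82 to -2.36, adjusted p = 4.33e-06), a fold of 0.117 on the count + 1 scale. THZ1 raised it in constricted hearts by 1.87 (SE 0.34, 95% interval 1.14 to 2.59, adjusted p = 0.00107), a fold of 3.65. The mean ± SD (n = 4) was 134 ± 25.9 for Sham-Veh, 106 ± 14.9 for Sham-THZ1, 15.4 ± 5.87 for TAC-Veh and 64.0 ± 36.0 for TAC-THZ1. Within TAC-THZ1 the libraries ranged from 24.7 in replicate 4 to 109 in replicate 2, so the group reached from just above TAC-Veh into the sham range. Between TAC-THZ1 and Sham-THZ1 the log2 fold change was -0.89 (SE 0.34, adjusted p = 0.0675). Without TAC-THZ1 replicate 2 that difference was -1.21 and passed the test (adjusted p = 0.0138, from 0.00817 to 0.216 over all 29 alternatives).

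The cells that eotaxin attracts were hardly seen in this tissue. Normalized counts of Ccr3 were between 0 and 2.41 in all 16 libraries, and the 4 eosinophil markers summed to 0 to 6.91 per library, with none of the 4 passing the filter. A gene with no read in a library has a limit of 3 reads, which is 2.15 to 4.01 normalized counts here, so differences in Ccr3 were not detectable at this depth. Ccl24, another Ccr3 ligand, was measured at 16.5 to 63.6 and was not called in any of the 5 comparisons. The nearest of the 10 genes on either side of Ccl11 gave other values. Ccl7 lies 10.3 kb before Ccl11 and Ccl8 52.2 kb after it, and their log2 fold changes with TAC were -0.68 (adjusted p = 0.405) and 1.76 (adjusted p = 0.0555), neither past the test.

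Cx3cl1, or fractalkine, is tethered to the cell surface by a mucin stalk, is made mostly by endothelial cells and neurons, and is the ligand of Cx3cr1 on monocytes and macrophages. Its normalized counts were 295, 242, 239.6 and 249 in Sham-Veh, 357, 318, 301 and 303 in Sham-THZ1, 633, 864, 394 and 504 in TAC-Veh and 336, 241, 400.4 and 251 in TAC-THZ1. All 4 TAC-Veh libraries lay above all Sham-Veh libraries, while TAC-THZ1 replicate 3 at 400.4 stood just above the lowest TAC-Veh library at 394. The rise with TAC was 1.16 (SE 0.19, 95% interval 0.76 to 1.57, adjusted p = 0.000165), a fold of 2.24. Under THZ1 the constricted hearts were lower than under vehicle (log2 fold change -0.93, SE 0.19, adjusted p = 0.0024). TAC-THZ1 differed from Sham-THZ1 by -0.09 with a 95% interval of -0.49 to 0.32 (adjusted p = 0.783). Sham-THZ1 values did not overlap Sham-Veh values, being 301 to 357 against 239.6 to 295, yet this difference of 0.32 did not pass the test (adjusted p = 0.808). Fitted on those 2 groups alone it did, as given in the account of sham hearts.

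Fibroblast marker sums were, like Cx3cl1, highest in TAC-Veh. The sum of 7 markers was 22517 to 25189 in Sham-Veh, 22338 to 24030.2 in Sham-THZ1, 61207 to 125784 in TAC-Veh and 26519.9 to 39333 in TAC-THZ1. With TAC 5 of 7 markers rose, against 21.4% of all genes, and with THZ1 in constricted hearts 5 of 7 fell, against 14.2%. Their part in the Cx3cl1 result was not tested. TAC-Veh replicate 2 was highest and replicate 1 second in both. Endothelial markers, from the cells best known to make fractalkine, summed to 19904 to 22091 in Sham-Veh, 21505 to 22904 in Sham-THZ1, 16972 to 22361 in TAC-Veh and 16202 to 18021 in TAC-THZ1. Of those 6 markers, Emcn was higher and Cdh5 and Kdr were lower with TAC. With THZ1 in constricted hearts Emcn was higher and Pecam1, Cdh5 and Tek were lower. Without TAC-THZ1 replicates 1 and 3, a pair picked after the chemokine values were seen, only the THZ1 call of Pecam1 held (-0.45, adjusted p = 0.0267). That fit keeps only replicates 2 and 4 of the group. Emcn (0.23, adjusted p = 0.0855), Cdh5 (-0.33, adjusted p = 0.116) and Tek (-0.25, adjusted p = 0.0658) kept their direction but were not called. The part of the endothelial markers in the Cx3cl1 result was not tested either. The shedding protease gene Adam10 was lower with THZ1 in constricted hearts (log2 fold change -0.33, SE 0.08, adjusted p = 0.00471), and Adam17 was not called. For the receptor gene Cx3cr1 the values were 153, 96.3, 128 and 114 in Sham-Veh, 125, 137, 100.2 and 148 in Sham-THZ1, 72.9, 350.4, 151 and 314 in TAC-Veh and 149.6, 90.4, 170.1 and 93.0 in TAC-THZ1. TAC-Veh libraries ran from 72.9 to 350.4, a spread that overlapped every other group, and Cx3cr1 was not called with TAC (0.62, 95% interval -0.16 to 1.40) or with THZ1 (-0.62, 95% interval -1.40 to 0.16).

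Cxcl12 retains and recruits cells that carry Cxcr4, and it is made by fibroblasts, endothelium and pericytes. Its values were 4546, 4606, 4507 and 5124 in Sham-Veh, 5502, 5408, 5931 and 5319.7 in Sham-THZ1, 3105, 2606, 2798 and 4280.3 in TAC-Veh and 3486, 3027, 4049 and 3051 in TAC-THZ1. Both TAC groups lay below both sham groups in all libraries. The log2 fold change with TAC was -0.58 under vehicle (SE 0.12, adjusted p = 0.00126) and -0.71 under THZ1 (SE 0.12, adjusted p = 0.00151), or folds of 0.669 and 0.61. THZ1 in constricted hearts gave 0.11 with a 95% interval of -0.15 to 0.37 (adjusted p = 0.549). TAC-Veh replicate 4, at 4280, stood apart from the other 3 libraries of its group (2606 to 3105). Without it the THZ1 difference was 0.26 and passed the test (adjusted p = 0.0466, from 0.0466 to 0.936 over the 29 alternatives). Mural cell markers (pericytes and smooth muscle) had the same outlying library. Their sum was 16896, 16401, 16595 and 23268 in the TAC-Veh libraries and 21208 to 23781 in Sham-Veh. Myh11 and Rgs5, 2 of the 5, fell with TAC under vehicle, and 4 of the 5 were lower with TAC under THZ1. Of 6 endothelial markers 2 fell and 1 rose with TAC under vehicle, and 3 were lower and 1 higher with TAC under THZ1. Fibroblast markers went the other way under vehicle, with sums of 61207 to 125784 in TAC-Veh against 22517 to 25189 in Sham-Veh. Of these 7 markers 5 rose with TAC under vehicle, and 3 were higher and 1 lower with TAC under THZ1. Of all genes 21.4% were higher and 23.6% lower with TAC under vehicle, and 11.4% and 12.8% under THZ1. The part of any of the 3 lists in the Cxcl12 result was not tested.

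The receptor genes of Cxcl12 moved with THZ1 in constricted hearts. Cxcr4 read 256, 209, 247 and 232 in Sham-Veh, 192, 207, 234 and 164 in Sham-THZ1, 201, 333, 242 and 284 in TAC-Veh and 185, 177, 154 and 183 in TAC-THZ1, and the 4 TAC-THZ1 libraries lay below all TAC-Veh libraries (log2 fold change -0.58, SE 0.14, adjusted p = 0.00557). Ackr3, which binds Cxcl12 and clears it without G protein signalling, read 2073, 1822, 2135 and 1803 in Sham-Veh, 1799.8, 1617, 1854 and 1607 in Sham-THZ1, 1974, 1672, 2069 and 2035 in TAC-Veh and 2413, 2367, 2256 and 2923 in TAC-THZ1. It was higher in TAC-THZ1 than in TAC-Veh (log2 fold change 0.36, SE 0.09, adjusted p = 0.00772) and than in Sham-THZ1 (log2 fold change 0.53, SE 0.09, adjusted p = 0.00148). Its THZ1 effect differed between constricted and sham hearts (interaction 0.55, SE 0.13, adjusted p = 0.0165). Sham-THZ1 values of 1607 to 1854 ran lower than the 1803 to 2135 of Sham-Veh, with some overlap. Dpp4, the gene of a surface protease that trims Cxcl12, was between 60.5 and 114 in all libraries and was not called.

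Ccl2, Ccl7 and Ccl8 belong to the monocyte chemoattractant proteins, which draw monocytes and other leukocytes. Ccl2 read 36.1, 38.5, 78.7 and 44.8 in Sham-Veh, 53.7, 56.2, 25.4 and 89.2 in Sham-THZ1, 28.2, 191, 45.6 and 29.8 in TAC-Veh and 106, 33.1, 249.8 and 48.5 in TAC-THZ1. Of 4 TAC-Veh libraries 1, replicate 2, was far above the rest, and 2 of 4 TAC-THZ1 libraries were above all Sham-Veh libraries. Ccl7 read 48.8, 29.7, 65.4 and 36.8 in Sham-Veh, 33.4, 64.0, 34.7 and 60.8 in Sham-THZ1, 8.23, 78.7, 25.8 and 29.0 in TAC-Veh and 103, 21.6, 212 and 33.6 in TAC-THZ1. It showed the same high libraries, TAC-Veh replicate 2 and TAC-THZ1 replicates 1 and 3. For Ccl8 the values were 24.4, 10.4, 11.5 and 12.6 in Sham-Veh, 23.9, 51.9, 14.7 and 15.2 in Sham-THZ1, 43.5, 79.4, 36.7 and 46.8 in TAC-Veh and 387, 16.5, 164 and 28.7 in TAC-THZ1. Its 4 TAC-Veh libraries lay above all Sham-Veh libraries, and TAC-THZ1 held both the 2 highest values of all 16 libraries and 2 values below every TAC-Veh library.

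None of these 3 genes passed the test in any comparison. With TAC the log2 fold changes were 0.15 for Ccl2 (95% interval -1.14 to 1.44), -0.68 for Ccl7 (-2.01 to 0.66) and 1.76 for Ccl8 (0.24 to 3.27, adjusted p = 0.0555). Ccl8 stood just outside the threshold, and 6 of 29 alternatives called it, with adjusted p from 0.00200 to 0.133. The call came without TAC-THZ1 replicate 1 (0.0186), replicate 2 (0.0249) or replicate 4 (0.0481), whose removal leaves the fold change as it is and alters the estimate of spread. With THZ1 in constricted hearts the changes were 0.62 for Ccl2 (95% interval -0.67 to 1.91), 1.22 for Ccl7 (-0.11 to 2.55) and 0.59 for Ccl8 (-0.92 to 2.11). Between TAC-THZ1 and Sham-THZ1 Ccl8 gave 1.66 (SE 0.72, adjusted p = 0.0999), and without TAC-THZ1 replicate 2 this was 2.37 with an adjusted p of 0.0163 (0.00928 to 0.939 over the 29 alternatives). Ccl12, the fourth monocyte chemoattractant gene of the mouse cluster, was higher in TAC-THZ1 than in Sham-THZ1 (log2 fold change 1.97, SE 0.51, adjusted p = 0.0125). Its values of 145, 42.0, 236 and 67.3 in TAC-THZ1 had the same 2 high libraries, with 13.1, 32.8, 24.0 and 35.5 in Sham-THZ1, and without those 2 the difference was 1.08 (SE 0.52, adjusted p = 0.204). The receptor gene Ccr2 read 126, 125, 130.0 and 96.5 in Sham-Veh, 105, 111, 107 and 124 in Sham-THZ1, 89.4, 259.6, 143 and 111 in TAC-Veh and 146, 109, 173 and 137 in TAC-THZ1, with TAC-Veh replicate 2 highest, and was not called.

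Ccl6 and Ccl9 are rodent chemokines of myeloid cells that act on Ccr1. Ccl6 read 503, 351, 413 and 384 in Sham-Veh, 594, 706, 391 and 513 in Sham-THZ1, 564, 437, 621 and 495 in TAC-Veh and 956, 434, 954 and 454 in TAC-THZ1. Ccl9 read 284, 187, 239.6 and 264 in Sham-Veh, 293, 336, 211 and 283 in Sham-THZ1, 388, 336, 352 and 308 in TAC-Veh and 518, 255, 458 and 265 in TAC-THZ1. In both genes TAC-THZ1 split into 2 high libraries (replicates 1 and 3) and 2 libraries within the sham range. Ccl9 was higher in every TAC-Veh library than in every Sham-Veh library, at 308 to 388 against 187 to 284, and its log2 fold change of 0.52 (SE 0.21) had an adjusted p of 0.0526. Of the 29 alternatives, 12 called it, 7 of them by leaving out 1 library: Sham-Veh replicate 1, Sham-THZ1 replicate 3, TAC-Veh replicate 4 or any TAC-THZ1 library. Adjusted p over all alternatives ran from 0.00903 to 0.164. Ccl6 gave 0.36 with TAC (95% interval -0.16 to 0.87) and 0.31 with THZ1 in constricted hearts (-0.20 to 0.83). For Ccl9 the THZ1 difference was 0.04 (-0.39 to 0.48). The receptor gene Ccr1 rose with TAC (log2 fold change 0.99, SE 0.34, adjusted p = 0.0256), from 50.9, 52.1, 55.7 and 39.1 to 129, 126, 64.4 and 89.4, without overlap. In TAC-THZ1 it read 190.0, 67.5, 145 and 54.4, again highest in replicates 1 and 3.

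Cxcl1 attracts neutrophils through Cxcr2. Its values were 31.8, 21.7, 40.7 and 29.9 in Sham-Veh, 31.0, 41.5, 34.7 and 25.3 in Sham-THZ1, 23.5, 50.1, 34.7 and 22.1 in TAC-Veh and 188, 39.5, 164 and 34.6 in TAC-THZ1. Only TAC-THZ1 replicates 1 and 3 left the range of the other groups, which was 21.7 to 50.1 over 12 libraries. Between TAC-THZ1 and TAC-Veh the log2 fold change was 1.36 (SE 0.45, adjusted p = 0.0329), and between TAC-THZ1 and Sham-THZ1 it was 1.28 (SE 0.45, adjusted p = 0.0492). These 2 high libraries were picked from the values, so a smaller difference without them was fixed in advance and is no test. Leaving out replicates 1 and 3 of TAC-THZ1 gave 0.25 (SE 0.32, adjusted p = 0.598) against TAC-Veh and 0.18 (SE 0.32, adjusted p = 0.77) against Sham-THZ1. Against TAC-Veh, removal of TAC-Veh replicate 1 (adjusted p = 0.0670) or 4 (0.0756), or TAC-THZ1 replicate 1 (0.113) or 3 (0.105), also ended the call, and the range over the 29 alternatives was 0.00134 to 0.598. Against Sham-THZ1 the call was lost without any 1 of 11 libraries: each Sham-Veh and Sham-THZ1 library, TAC-Veh replicate 3, and TAC-THZ1 replicates 1 and 3. Adjusted p over those 11 ran from 0.0547 to 0.169, and over all alternatives from 0.00228 to 0.770. TAC under vehicle gave 0.03 (95% interval -0.93 to 0.99).

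The Cxcl1 receptor gene and neutrophil markers were high in the same group. Cxcr2 read 1.06, 2.41, 3.54 and 4.60 in Sham-Veh, 3.58, 30.2, 9.35 and 4.05 in Sham-THZ1, 9.41, 5.72, 2.97 and 4.26 in TAC-Veh and 92.8, 35.6, 63.5 and 7.92 in TAC-THZ1, and it was higher in TAC-THZ1 than in TAC-Veh (log2 fold change 2.60, SE 0.68, adjusted p = 0.00923). The 7 neutrophil markers summed to 49.9 to 97.3 in Sham-Veh, 81.0 to 538 in Sham-THZ1, 121 to 276 in TAC-Veh and 7671, 945, 3335 and 211 in the TAC-THZ1 libraries. S100a8 and S100a9, calcium-binding proteins stored in neutrophils, were higher in TAC-THZ1 than in TAC-Veh. They are 2 of the 4 neutrophil markers that passed the filter, where 15.1% of all genes were higher. Ly6g, the defining surface marker, was at 0 in the other 12 libraries and at 9.83, 1.27, 2.44 and 1.98 in TAC-THZ1, where only replicate 1 was above the worth of 3 reads in its library. Neutrophil sums and Cxcl1 ranked the 4 libraries alike, with replicates 1 and 3 highest, but the sums of replicates 2 and 4 were 945 and 211 while their Cxcl1 values were 39.5 and 34.6. The part of neutrophil content in the Cxcl1 result was not tested. Cxcl5, another Cxcr2 ligand, was 81.9, 5.09, 205 and 11.9 in TAC-THZ1 against 1.18, 11.4, 7.93 and 3.41 in TAC-Veh (log2 fold change 2.57, SE 0.89, adjusted p = 0.0385). Ppbp, a platelet chemokine gene, was 69.9, 62.4, 97.6 and 39.6 against 21.2, 55.8, 27.7 and 12.8 (log2 fold change 1.29, SE 0.40, adjusted p = 0.0237). TAC-THZ1 replicates 1 and 3 were picked for their high values, so for genes highest there a smaller difference without them was fixed in advance. With only replicates 2 and 4 left, none of these calls held: the differences were 1.55 (SE 0.75, adjusted p = 0.148) for Cxcr2, 1.83 (SE 0.85, adjusted p = 0.129) for S100a8, 1.90 (SE 0.93, adjusted p = 0.148) for S100a9, 0.63 (SE 0.75, adjusted p = 0.57) for Cxcl5 and 0.93 (SE 0.50, adjusted p = 0.185) for Ppbp.

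Cxcl14, a homeostatic chemokine of epithelial and stromal cells, read 468, 349.7, 475 and 469 in Sham-Veh, 519, 501, 342 and 344 in Sham-THZ1, 375, 415, 361 and 678 in TAC-Veh and 689, 439, 487 and 423 in TAC-THZ1. All 4 groups overlapped. Differences were 0.02 with TAC (95% interval -0.41 to 0.45), 0.18 with THZ1 in constricted hearts (-0.25 to 0.61) and 0.26 with TAC under THZ1 (-0.18 to 0.69). None passed the test. The highest libraries were TAC-THZ1 replicate 1 and TAC-Veh replicate 4.

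The 4 TAC-THZ1 libraries fell apart in a way that ran through 9 of the 10 genes. Replicates 1 and 3 were both above replicates 2 and 4 for each gene except Ccl11, while 21.1% of the 13331 genes tested had that order and 22.4% had the reverse. The order was picked after these values were seen, and several of the genes vary together, so 9 of 10 is a description and not a test. The mean of replicates 1 and 3 over that of 2 and 4 was 12.2 for Ccl8, 5.68 for Ccl7, 4.74 for Cxcl1, 4.36 for Ccl2, 2.15 for Ccl6, 1.88 for Ccl9, 1.50 for Cx3cl1, 1.37 for Cxcl14 and 1.24 for Cxcl12. For Ccl11 it was 0.907. Monocyte and macrophage markers, 14 in all, summed to 18746, 9464, 15280.1 and 10416 in these 4 libraries against 12386 to 14005 in TAC-Veh and 9054 to 10728 in Sham-Veh. Fibroblast sums (39333, 26519.9, 33895 and 32770.4) and endothelial sums (18021, 16376, 17445 and 16202) were also higher in replicates 1 and 3 than in 2 and 4, over a narrower range. The part of these cells in the split was not tested. Lymphocyte marker sums did not show it, at 65.5, 71.3, 84.6 and 107.

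Without replicates 1 and 3, several chemokine differences from TAC-Veh changed side. The pair was picked for its high values in these genes, so lower differences without it were fixed in advance. Only replicates 2 and 4 remained in that fit. Ccl8 went from 0.59 to -1.14 (SE 0.47, adjusted p = 0.0907), Ccl2 to -0.37 (SE 0.63, adjusted p = 0.701), Ccl9 to -0.41 (SE 0.18, adjusted p = 0.103) and Ccl6 to -0.24 (SE 0.20, adjusted p = 0.399). Ccl7 was 0.02 (SE 0.59, adjusted p = 0.988). None of these passed the test with or without the 2 libraries. Of all genes 24.5% were called without the 2 libraries (12.5% higher, 12.0% lower). The calls of Ccl11 and Cx3cl1 held, at 1.77 (SE 0.44, adjusted p = 0.0105) and -1.22 (SE 0.21, adjusted p = 0.00187).

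**Figure D3:**
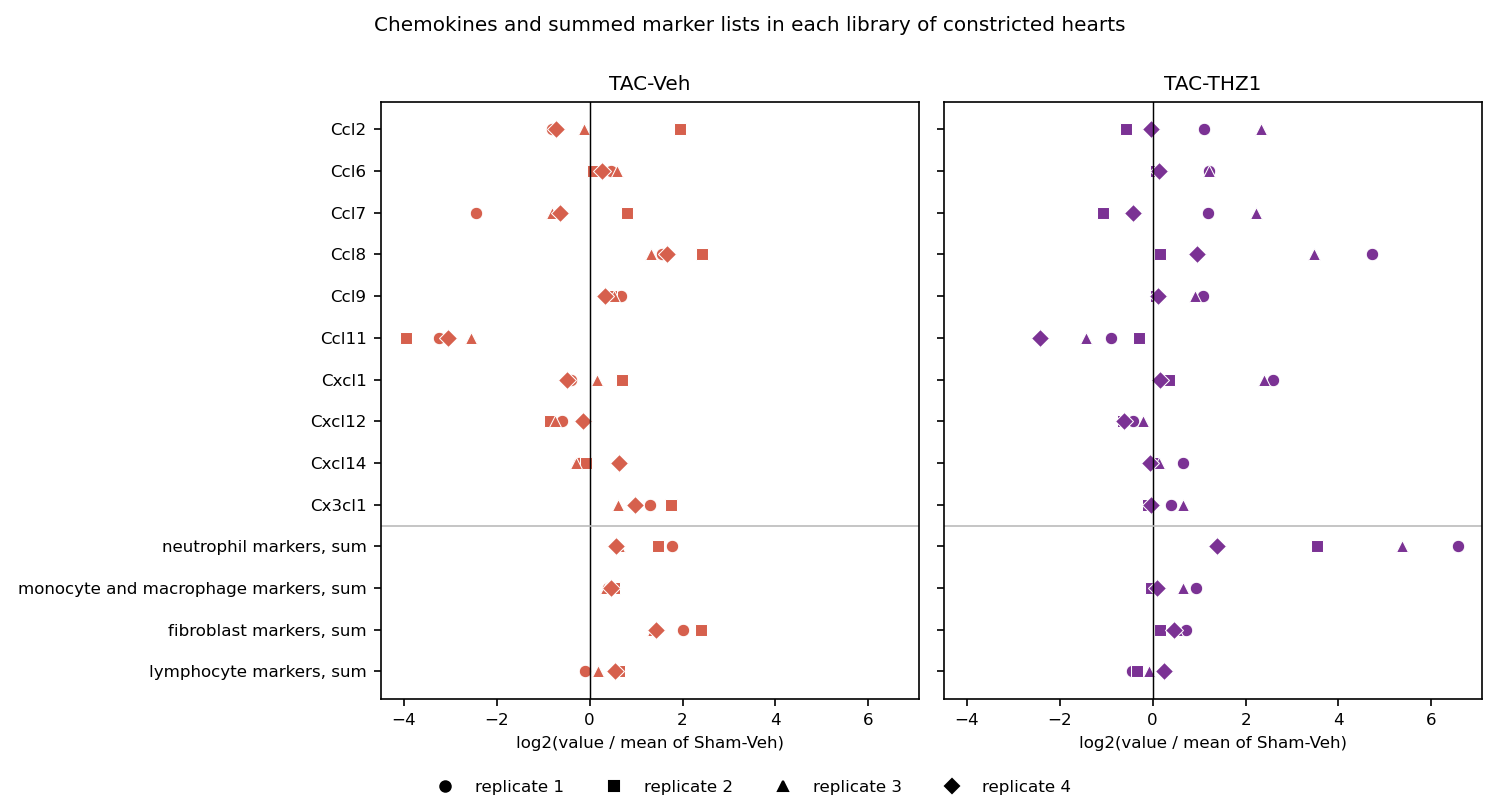
Log2 of each value over the Sham-Veh mean (horizontal axis) in the 4 TAC-Veh libraries (left) and the 4 TAC-THZ1 libraries (right), with marker shape for the replicate number, for the 10 chemokines and the sums of 4 cell marker lists. In TAC-THZ1, replicates 1 and 3 lie to the right for every chemokine except Ccl11, as do the neutrophil, monocyte and macrophage, and fibroblast sums, but not the lymphocyte sum.

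Pressure overload under THZ1 (TAC-THZ1 against Sham-THZ1) called 2 of the 10, Cxcl1 higher and Cxcl12 lower, against 24.2% of all genes (11.4% higher, 12.8% lower). Of the 10, Cxcl12 alone had values without overlap, on the lower side, against 33.4% of all genes (15.7% higher, 17.7% lower). In sham hearts THZ1 called none of the 10 by limma, and 9 of 13331 genes, 0.0675%, were called at all (0.0225% higher, 0.0450% lower). No chemokine there had an unadjusted p under 0.05: the lowest was 0.0701 for Cxcl12, and edgeR and DESeq2 called none. Cxcl12 (5320 to 5931 against 4507 to 5124) and Cx3cl1 were without overlap, both higher, 2 of 10 against 11.3% of all genes (6.29% higher, 5.05% lower). A fit on the 2 sham groups alone called both, with adjusted p of 0.0162 for Cxcl12 and 0.0496 for Cx3cl1, where that fit called 3.49% of all genes (2.15% higher, 1.34% lower).

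The interaction, (TAC-THZ1 minus TAC-Veh) minus (Sham-THZ1 minus Sham-Veh), tests whether the THZ1 effect differed between constricted and sham hearts. It was called for 2 of the 10, against 10.0% of all genes (4.40% positive, 5.62% negative). Ccl11 gave 2.20 (SE 0.49, 95% interval 1.17 to 3.22, adjusted p = 0.0122), with THZ1 changes of 1.87 in constricted and -0.33 in sham hearts. Cx3cl1 gave -1.25 (SE 0.27, 95% interval -1.83 to -0.67, adjusted p = 0.0118), with -0.93 in constricted and 0.32 in sham hearts. Cxcl1 gave 1.25 with a 95% interval of -0.10 to 2.61 (adjusted p = 0.22), so an effect confined to constricted hearts was not shown for it.

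Among 31 other chemokine ligands, 28 matched the table, 10 passed the filter, and Ccl20, Ccl21c, Ccl27b and Cxcl15 were at 0 in every library. With TAC, Cxcl16 (log2 fold change 0.77, SE 0.19, adjusted p = 0.00411) and Pf4 (log2 fold change 0.52, SE 0.14, adjusted p = 0.00592) rose and Cxcl9 (log2 fold change -1.07, SE 0.32, adjusted p = 0.0114) fell. Cxcl16 is a membrane-bound ligand of Cxcr6, Pf4 a platelet and macrophage chemokine, and Cxcl9 an interferon-gamma target that attracts T cells. With THZ1 in constricted hearts 5 of the 10 were higher and none lower (Cxcl13, Cxcl5, Ppbp, Cxcl9 and Ccl27a), where 15.1% of all genes were higher. Without TAC-THZ1 replicates 1 and 3 none of these 5 calls held. The difference was then 0.31 (SE 0.27, adjusted p = 0.415) for Cxcl9 and 0.78 (SE 0.29, adjusted p = 0.0647) for Ccl27a, and Cxcl16 was lower (-0.54, adjusted p = 0.0396). Ccl27a read 29.5, 56.0, 35.0 and 25.7 in TAC-THZ1 and 21.2, 15.7, 23.8 and 28.1 in TAC-Veh. Its highest TAC-THZ1 library was replicate 2, so its values did not follow replicates 1 and 3. Cxcl13, which draws B cells, read 159, 11.5, 203 and 13.9 in TAC-THZ1 and 15.3, 6.44, 3.96 and 2.56 in TAC-Veh (log2 fold change 2.87, SE 0.83, adjusted p = 0.0166). Without the pair of high libraries it gave 1.00 (SE 0.71, adjusted p = 0.326). Cxcl9 read 245, 191, 211 and 171 in Sham-Veh, 124, 113, 123 and 78.0 in Sham-THZ1, 61.1, 114, 88.2 and 136 in TAC-Veh and 284, 108, 346 and 132 in TAC-THZ1. Like Ccl11 it was lower in every TAC-Veh library than in every Sham-Veh library and had a positive interaction of 1.91 (SE 0.45, adjusted p = 0.0161), but its Sham-THZ1 libraries also lay below all Sham-Veh libraries and its 2 highest TAC-THZ1 libraries were replicates 1 and 3. Without those 2 libraries the Cxcl9 interaction was 1.22 and still called (SE 0.34, adjusted p = 0.0374).

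Of 19 signalling receptor genes 7 passed the filter. With TAC 2 of 7 rose, Ccr1 and Cxcr6, and with THZ1 in constricted hearts Cxcr2 rose while Cxcr4 and Cxcr6 fell. Of all genes tested, 21.4% were higher with TAC, and 15.1% were higher and 14.2% lower with THZ1 in constricted hearts. Cxcr6 read 9.55, 10.4, 6.19 and 8.04 in Sham-Veh, 5.96, 3.46, 1.34 and 7.09 in Sham-THZ1, 70.5, 37.9, 16.8 and 15.3 in TAC-Veh and 5.46, 10.2, 13.8 and 11.9 in TAC-THZ1, with log2 fold changes of 1.67 (SE 0.47, adjusted p = 0.00853) and -1.47 (SE 0.47, adjusted p = 0.0273). Without TAC-THZ1 replicates 1 and 3 the latter was -1.32 (SE 0.58, adjusted p = 0.107), while Cxcr4 stayed past the test at -0.53 (SE 0.17, adjusted p = 0.0379). Of the atypical receptors, which take up chemokines without classical signalling, Ackr2 rose with TAC (log2 fold change 1.23, SE 0.27, adjusted p = 0.00182). Ackr2 clears inflammatory CC chemokines, Ccl2 and Ccl11 among them. It read 76.4, 31.3, 44.2 and 39.1 in Sham-Veh, 47.7, 64.8, 34.7 and 68.9 in Sham-THZ1, 131, 99.4, 83.2 and 121 in TAC-Veh and 76.4, 48.4, 92.8 and 56.4 in TAC-THZ1, and TAC-Veh libraries were above all Sham-Veh libraries. Ccrl2, which presents chemerin, fell with TAC (log2 fold change -0.78, SE 0.11, adjusted p = 3.84e-05) and rose with THZ1 in constricted hearts (log2 fold change 0.85, SE 0.11, adjusted p = 9.76e-05), from 185, 131, 160.5 and 132 to 297, 272, 243 and 275.

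**Figure D4:**
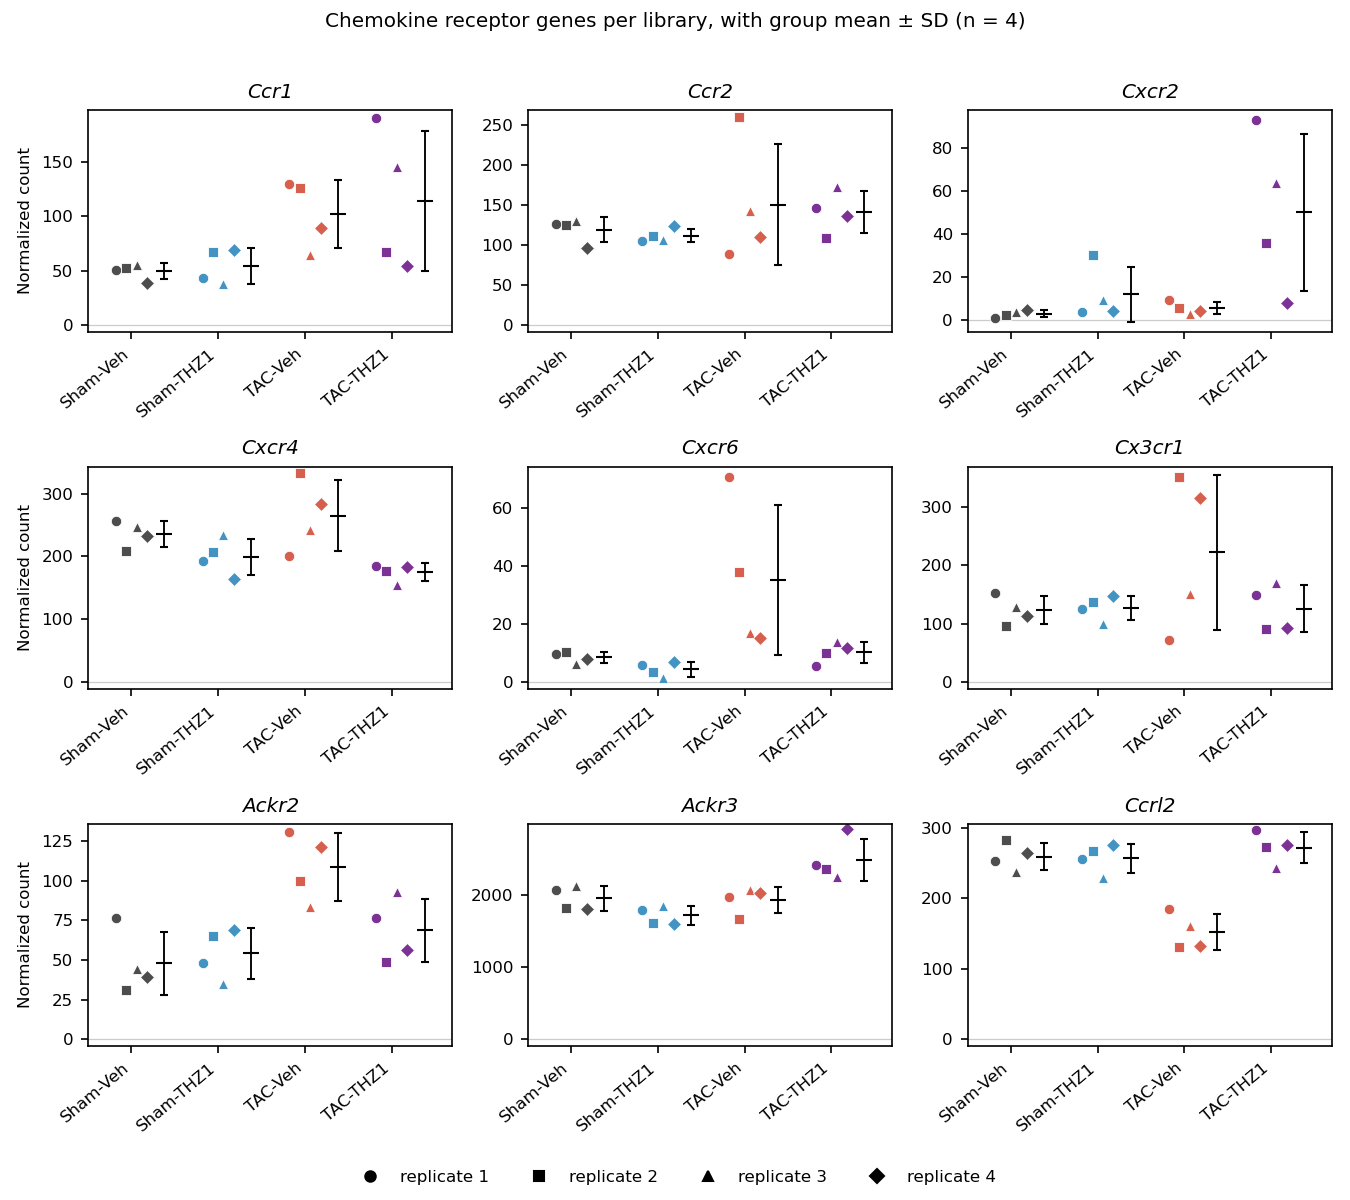
Normalized counts (vertical axis, from 0) of 9 chemokine receptor genes in each of the 16 libraries, with marker shape for the replicate number and the bar for the group mean ± SD (n = 4). Ccrl2 is lowest in TAC-Veh and Ackr2 highest there, Cxcr2 is high in 3 of 4 TAC-THZ1 libraries, and Cx3cr1 and Ccr2 spread widely in TAC-Veh.

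Of 6 genes of proteases that cut or shed chemokines, 2 rose with TAC, and with THZ1 in constricted hearts 1 rose and 3 fell. The shares over all genes were 21.4% higher with TAC, and 15.1% higher and 14.2% lower with THZ1 in constricted hearts. Mmp2 rose with TAC (log2 fold change 1.36, SE 0.14, adjusted p = 2.15e-06) and fell with THZ1 in constricted hearts (log2 fold change -1.32, SE 0.14, adjusted p = 3.19e-05), as did Mmp14 (0.74 and -0.93, adjusted p = 0.0053 and 0.00229). Mmp9, a neutrophil gelatinase, rose with THZ1 in constricted hearts (log2 fold change 2.74, SE 0.49, adjusted p = 0.000943) and read 219.5, 47.1, 144 and 32.7 in TAC-THZ1, highest in replicates 1 and 3, and without them the difference was 1.66 (SE 0.41, adjusted p = 0.011). Of 22 genes that induce chemokines or carry their signals, 21 passed the filter. With TAC 9 of the 21 rose and none fell, where 21.4% of all genes were higher and 23.6% lower. Among the 9 were Tlr4 (0.96, adjusted p = 2.42e-06), Ifngr1 (0.79, adjusted p = 8.95e-06), Il4ra (0.96, adjusted p = 0.00584) and Tlr2 (0.87, adjusted p = 0.00164). Tlr4 senses bacterial lipopolysaccharide and tissue damage products, and Il4ra is the receptor chain through which Il4 and Il13 induce Ccl11. With THZ1 in constricted hearts 4 of 21 fell, against 14.2% of all genes: Tlr4 (-0.48), Ifngr1 (-0.53), Stat3 (-0.29) and Nfkb1 (-0.19), with adjusted p of 0.00256, 0.000873, 0.0126 and 0.0287. Without TAC-THZ1 replicates 1 and 3 Nfkb1 was no longer called (-0.21, adjusted p = 0.067), but 7 of 21 were then lower, against 12.0% of all genes. Tlr4, Ifngr1 and Stat3 stayed among them. The others were Il4ra (-0.89, adjusted p = 0.044), Il1r1 (-0.38, adjusted p = 0.0257), Tnfrsf1a (-0.49, adjusted p = 0.0122) and Tnfrsf1b (-0.60, adjusted p = 0.0493).

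Other cell markers moved too. Their counts stand against 21.4% of all genes higher and 23.6% lower with TAC, and 15.1% and 14.2% with THZ1 in constricted hearts. Of 13 monocyte and macrophage markers tested 4 rose with TAC, among them Cd14 (0.97, adjusted p = 0.000361) and Lyz2 (0.69, adjusted p = 0.00372), and none was called with THZ1 in constricted hearts. Without TAC-THZ1 replicates 1 and 3, 4 of the 13 were lower there, against 12.0% of all genes: Itgam (-0.71, adjusted p = 0.00618), Mrc1 (-0.63, adjusted p = 0.00381), Cd14 (-0.65, adjusted p = 0.035) and Csf1r (-0.39, adjusted p = 0.0379). Of 6 cardiomyocyte markers 4 fell with TAC and 4 rose with THZ1 in constricted hearts. Of 5 mast cell markers Cpa3 (0.77, adjusted p = 0.049) and Tpsb2 (0.75, adjusted p = 0.0409) rose with THZ1 in constricted hearts. Of 4 lymphocyte markers tested Cd79a fell in that comparison, and none of these 3 calls held without TAC-THZ1 replicates 1 and 3. Cpa3 was then 0.77 (SE 0.36, adjusted p = 0.131) and Tpsb2 0.77 (SE 0.33, adjusted p = 0.101), so the size of both differences had hardly changed. Cd79a was -0.69 (SE 0.38, adjusted p = 0.205). Of 4 mesothelial markers Msln and Upk3b rose with TAC. Of 4 atrial markers 1 passed the filter and was not called. Their part in the chemokine values was not tested.

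Some of the 10 genes varied together within groups. On log2 values centred in each group, over the same 16 libraries, Pearson r was 0.93 for Ccl6 and Ccl9, 0.88 for Ccl2 and Ccl7, and 0.86 for both Ccl8 and Ccl9 and Ccl8 and Cxcl1. Of 45 pairs, 9 were over 0.7, all among Ccl2, Ccl6, Ccl7, Ccl8, Ccl9 and Cxcl1. Ccl11 gave -0.43 to 0.21 with the other 9. These points share libraries and depth, and the split of the TAC-THZ1 libraries is part of them.

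**Figure D5:**
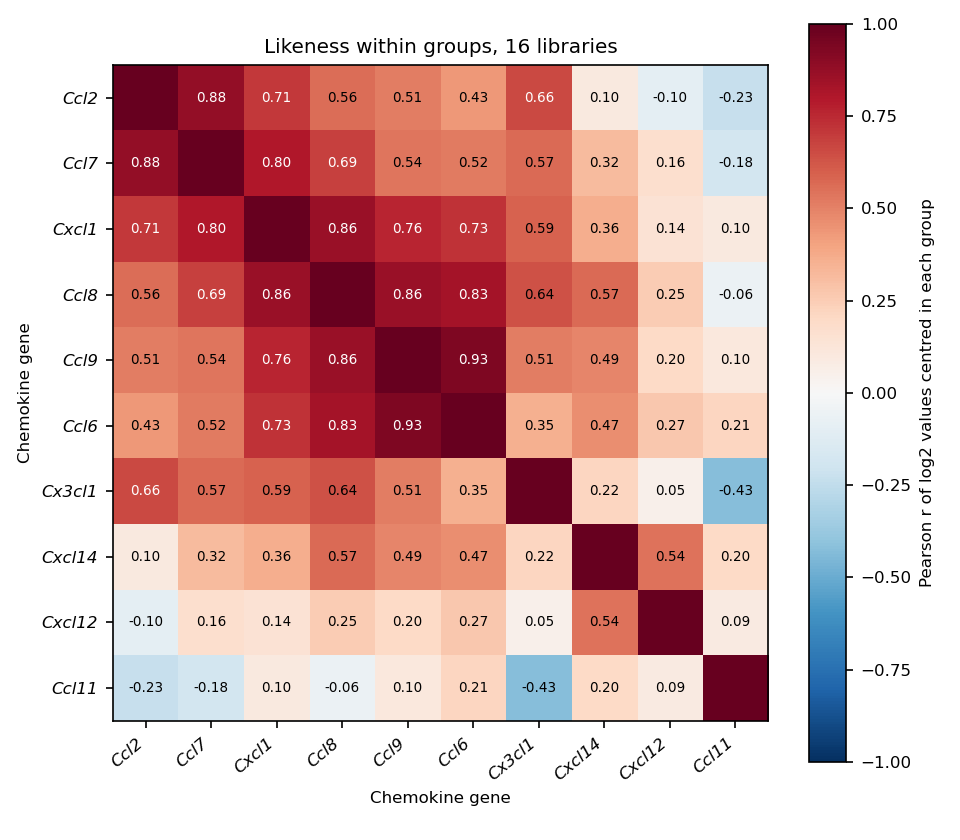
Pearson r (colour and printed value) between each pair of chemokine genes over 16 libraries, on log2(normalized count + 1) centred within each group. Ccl2, Ccl7, Cxcl1, Ccl8, Ccl9 and Ccl6 form a block with high values, and Ccl11 and Cxcl12 stand outside it.

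Over all genes tested, and across the 16 uncentred libraries, the genes most like Ccl11 were Osbpl2 (Pearson r 0.98) and Slc4a3 (0.96). For Cx3cl1 they were Rbms3 (0.98) and Emilin1 (0.96), and for Cxcl12 Patl1 (0.97) and Shank3 (0.97). Ccl2 was most like Ccl7 (0.84) and Irf8 (0.82), Ccl6 like Ccl9 (0.90) and Igfbp4 (0.86), and Ccl7 like Nlrp3 (0.88) and Stat2 (0.87). Ccl8 had C1s (0.95) and Hba-a2 (0.95), Ccl9 had Bst1 (0.92) and Ccl8 (0.91), and Cxcl1 had Bpgm (0.94) and Slfn4 (0.92). Cxcl14 had no gene above 0.78 (Itgal), followed by Ggn (0.72).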

How the data were processed

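RNA was measured by stranded, polyA-selected sequencing of heart ventricles in 16 libraries. The authors aligned reads with TopHat2 2.1.1 to mm9, counted them per GENCODE gene with HTSeq by strand, and deposited DESeq2-normalized counts, a signal scaled by size factors over all mouse libraries. Dividing each library by the value of 1 read gave whole reads for 100% of values (tolerance 0.01), used as counts in edgeR and DESeq2 alternatives. Depth was 21.4 to 35.8 M recovered reads a library, and limits from 0 reads cover counting error only.

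The main test was limma 3.58.1 (R 4.3.3) on log2(normalized count + 1), a group-means model with trended empirical Bayes over all 16 libraries, for 13331 genes with at least 10 normalized counts in at least 4 libraries, and Benjamini-Hochberg adjustment over all of them. A call is an adjusted p under 0.05. Intervals are at 95%. Coordinates came from GENCODE M1 on NCBIM37, and all 22372 identifiers matched. The script was tested on simulated data. Alternatives were other pseudocounts, filters, scalings, sample sets, edgeR 4.0.16, DESeq2 1.42.0, a replicate block, and leaving out each library. Leaving out TAC-THZ1 replicates 1 and 3 together was added after seeing the data. The pair was picked for its high chemokine values, and only replicates 2 and 4 of that group remain without it. For genes highest in the pair a smaller difference was thus fixed in advance. A lost call there does not show that the call depended on the pair.

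The chemokines and all gene lists were chosen with earlier results of these data known. Named genes are the 10 chemokines, genes of the related lists called with TAC or with THZ1 in constricted hearts, and the 2 genes most like each chemokine. Ccl12, Ccl24, Ccr2, Ccr3, Cx3cr1, Adam17, Dpp4, Ly6g and the other cell markers named were added after their values were seen. No pairing of libraries by replicate number was seen, and the main test used none. The labels do not tie each library to its own mouse, so p-values measure only the spread between these samples, which may be technical.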

Additional observations from a re-analysis of the deposited data

Results flagged for a closer look

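In each of 40 groups of 4 values (10 chemokines in 4 groups), the gap of the highest or lowest value to its nearest neighbour was set against the group's range, and gaps above Dixon's 95% critical value for 4 samples were noted. Chance gives about 1 in 20 such groups. Ccl2 was far highest in TAC-Veh replicate 2, at 190.9 normalized counts. Ccl8 was highest in Sham-Veh replicate 1 (24.4), Cxcl12 highest in Sham-Veh replicate 4 (5124) and Cxcl14 lowest in Sham-Veh replicate 2 (349.7). The THZ1 effect differed between constricted and sham hearts by the interaction test for Ccl11 (2.20 on the log2 scale, adjusted p = 0.0122) and Cx3cl1 (-1.25, adjusted p = 0.0118).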

How the results depend on the processing

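The calls of Ccl11 and Cx3cl1 with TAC and with THZ1 in constricted hearts, and of Cxcl12 with TAC under vehicle and under THZ1, kept their direction and an adjusted p under 0.05 in all 29 alternative fits. The 2 interaction calls did so in all 28 that could be made. An adjusted p under 0.01 ended both interaction calls, leaving 0 positive and 0 negative. The count of chemokines higher with TAC was 1, and became 2 with upper quartile scaling, 3 with only the groups compared, 3 with DESeq2, 3 without TAC-THZ1 replicates 1 and 3, and 1 to 3 when single libraries were left out. Among all 13331 genes the count higher was 2857 in the main fit and 3064 with upper quartile scaling. It was 2290 with only the groups compared, 3021 with DESeq2 and 2925 without TAC-THZ1 replicates 1 and 3. The count lower with TAC was 2. It was 1 with a log2 fold threshold of 1, which drops Cxcl12 and which the study set only for genes higher with TAC. The count higher with THZ1 in constricted hearts was 2, and 1 with only the groups compared, array weights, an adjusted p under 0.01, or without TAC-THZ1 replicates 1 and 3, and 1 to 2 without single libraries. Among all genes that count was 2019, and 583 with only the groups compared, 1310 with array weights and 1661 without TAC-THZ1 replicates 1 and 3. In sham hearts the count higher was 0, and 2 with only the groups compared, against 3 and 287 of all genes. The count higher with TAC under THZ1 was 1. It was 0 with no filter, only the groups compared, robust eBayes, array weights, an adjusted p under 0.01 or without TAC-THZ1 replicates 1 and 3, 2 with edgeR and with DESeq2, and 0 to 2 without single libraries. Among all genes it was 1514, and 1370 of 17888 with no filter, 2054 with only the groups compared and 1499 with robust eBayes. Array weights gave 2379, edgeR 1610, DESeq2 1725, and the fit without TAC-THZ1 replicates 1 and 3 gave 436. The count lower with TAC under THZ1 was 1, 2 with array weights (1706 and 2632 of all genes), and 1 to 2 without single libraries. It was 0 with the same log2 fold threshold of 1, which the study did not set for this comparison. The cause was not tested.

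Directions changed only for differences that had not passed the test. Without TAC-THZ1 replicates 1 and 3 the THZ1 differences in constricted hearts were -0.37 for Ccl2, -0.24 for Ccl6, -1.14 for Ccl8, -0.41 for Ccl9, -0.046 for Cxcl12 and -0.036 for Cxcl14. TAC under THZ1 then gave -0.35 for Ccl2, -0.28 for Ccl6, -0.75 for Ccl7, -0.074 for Ccl8 and -0.092 for Ccl9, and the interaction -0.49 for Ccl2 and -0.075 for Ccl7. Quantile normalization gave -0.14 for Cxcl1 with TAC. Array weights gave -0.035 for Ccl9 with THZ1 in constricted hearts and 0.0046 for Cxcl14 in sham hearts. The Ccl8 interaction was 0.0076 with a pseudocount of 4, 0.60 with edgeR and 0.68 with DESeq2.

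Leaving out single libraries changed signs as follows. With TAC, Ccl2 ran from -0.47 to 0.44, Cxcl1 from -0.20 to 0.18 and Cxcl14 from -0.19 to 0.11. With THZ1 in constricted hearts Ccl8 ran from -0.19 to 1.30 and Ccl9 from -0.13 to 0.21. In sham hearts Ccl2 ran from -0.14 to 0.45, Ccl7 from -0.085 to 0.29, Cxcl1 from -0.050 to 0.24 and Cxcl14 from -0.17 to 0.035. TAC under THZ1 ran from -0.12 to 0.96 for Ccl7 and from -0.22 to 0.021 for Cx3cl1. The interaction ran from -0.034 to 1.12 for Ccl2, -0.27 to 0.11 for Ccl6, -0.88 to 0.61 for Ccl8, -0.34 to 0.0045 for Ccl9 and -0.22 to 0.017 for Cxcl12.

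With the replicate number as a block the count higher with TAC was 2, through Ccl9 (adjusted p = 0.0454), and no other chemokine call changed. Deviations of same-numbered libraries had a median correlation of 0.0215 over 24 pairs (-0.431 to 0.164, 2 over 0.1), against 0.00055 over 72 other pairs. No pairing by number was seen, though correlations over 24 pairs cannot show that there was none. At this depth genes under 2.15 to 4.01 normalized counts, the worth of 3 reads, cannot be told from 0.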
